A study of Homo sapiens with 6 samples.

Results

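The GATA factors are the 6 transcription factor genes GATA1, GATA2, GATA3, GATA4, GATA5 and GATA6, out of 19974 protein-coding genes examined in the same way. They were chosen by family name, not by their chromatin values, but with earlier results of these data known. A peak or differential region was counted for a gene when it overlapped, by at least 1 bp, the RefSeq GRCh38 span of the gene extended by 10 kb on each side, called the window below. Of the 4 peak lists, the 2 H3K4me3 lists held 14 (OTX2high) and 15 (OTX2low) peaks in these windows, and the 2 H3K27me3 lists held 108 (labelled OTX2high) and 291 (labelled OTX2low).

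GATA factors bind DNA through zinc fingers that recognize the letters GATA, and work with cofactors such as the FOG proteins and with TAL1, LMO2 and LDB1. GATA1, GATA2 and GATA3 are known for blood cell fates, and GATA2 and GATA3 also for the choice of inhibitory fate in some neurons of the midbrain, hindbrain and spinal cord. GATA4, GATA5 and GATA6 are known for heart and endoderm. H3K4me3 is a histone mark of promoters that are active or poised, H3K27me3 is the mark made by Polycomb repressive complex PRC2, and promoters carrying both are usually called bivalent.

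The data were ChIP-seq libraries of D283, a human medulloblastoma line of Group 3 that is long established in culture. It was grown as tumorspheres, floating clusters, in neural precursor medium with FGF and EGF. Cells received 30 nM of either a scramble siRNA that silences no gene (OTX2high) or an siRNA against OTX2, the homeodomain factor of this tumor group (OTX2low). Each mark was profiled in 1 library per condition, so no difference between conditions has a replicate check, and all values come from 1 cell line. Filtered tags numbered 33137731 (OTX2high) and 20914582 (OTX2low) for H3K4me3, and 40271458 (labelled OTX2high) and 33885628 (labelled OTX2low) for H3K27me3. The H3K27me3 list labelled OTX2high is headed OTX2low in its own header, and the other H3K27me3 list is headed OTX2high. Both lists are therefore named by their sample labels here, and no direction between conditions was read from them. The list labelled OTX2high was called against an IgG library of 55079542 tags, as was H3K4me3 of OTX2low. The list labelled OTX2low was called against one of 85840108 tags, as was H3K4me3 of OTX2high. The fragment length that the peak caller estimated was 169 bp for the list labelled OTX2high and 78 bp for the list labelled OTX2low, and the median peak lengths were 332 and 139 bp, so peak lengths and covered shares of these 2 lists are not comparable. The 2 IgG libraries carry titles and silencing labels that oppose each other and were placed in no group.

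The labelled cell type was checked against fixed markers. Of 9 markers of Group 3 medulloblastoma and D283, 8 had an H3K4me3 peak within 2000 bp of their span in OTX2high and 9 in OTX2low, and all 4 neural markers had one in both lists. Of 7 blood and immune markers, 1 had such a peak in each list, and no marker of that group had one in both. SOX17 was the single one of 5 endoderm markers with a peak in both lists, whereas 3 of 4 markers of mesenchyme and muscle and 2 of 3 endothelial markers had peaks in both. Of all genes, 79.5% (OTX2high) and 78.2% (OTX2low) had an H3K4me3 peak within 10 kb, a wider rule. The high marker counts alone therefore do not identify the cell type. H3K27me3 peaks lay at 3 and 2 of the 4 neural markers (labelled OTX2high and OTX2low) and at 1 of the 9 Group 3 markers in each list. In the same order they lay at 3 and 3 of 5 endoderm and 3 and 3 of 4 mesenchyme and muscle markers. The counts were 2 and 1 of 7 for blood and immune and 1 and 0 of 3 for endothelial markers. By the wider rule, 33.8% and 22.9% of all genes had such a peak.

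Promoter sequences of GATA1, GATA2, GATA3 and GATA6 are shown first because the marks described below sit on some of these starts and not on others. Each is the RefSeq GRCh38.p14 window from 250 bases before to 50 bases after an annotated start, read 5′ to 3′ on the gene's strand, with every CG in capitals. The GATA1 window, chrX:48786340-48786639 on the plus strand, held 7 CG and no peak of any list. The GATA2 window, chr3:128488481-128488780 on the minus strand, held 22 CG and is the downstream one of the 2 annotated GATA2 starts. Of the 6 annotated GATA3 starts the 2 nearest to the strongest H3K4me3 peaks are shown, chr10:8049604-8049903 with 18 CG and chr10:8053391-8053690 with 36 CG, both on the plus strand. The GATA6 window, chr18:22169339-22169638 on the plus strand, held 25 CG.
GATA1: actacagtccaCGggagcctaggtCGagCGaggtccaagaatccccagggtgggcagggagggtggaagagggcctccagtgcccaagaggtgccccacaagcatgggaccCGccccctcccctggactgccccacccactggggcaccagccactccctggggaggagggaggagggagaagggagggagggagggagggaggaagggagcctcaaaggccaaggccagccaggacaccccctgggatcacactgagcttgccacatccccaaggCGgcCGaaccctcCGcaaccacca
GATA2: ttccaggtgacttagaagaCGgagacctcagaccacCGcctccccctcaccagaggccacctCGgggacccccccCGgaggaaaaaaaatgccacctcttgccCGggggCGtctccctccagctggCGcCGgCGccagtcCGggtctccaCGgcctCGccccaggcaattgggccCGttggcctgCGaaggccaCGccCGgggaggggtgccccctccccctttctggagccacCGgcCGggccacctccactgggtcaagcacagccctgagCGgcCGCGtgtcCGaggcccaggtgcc
GATA3, upstream of the pair: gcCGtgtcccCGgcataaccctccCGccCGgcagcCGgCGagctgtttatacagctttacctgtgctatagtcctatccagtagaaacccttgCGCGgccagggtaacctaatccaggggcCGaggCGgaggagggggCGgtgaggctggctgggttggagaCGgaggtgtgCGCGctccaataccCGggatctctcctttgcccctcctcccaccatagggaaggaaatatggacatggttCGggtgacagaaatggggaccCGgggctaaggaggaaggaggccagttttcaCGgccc
GATA3, downstream of the pair: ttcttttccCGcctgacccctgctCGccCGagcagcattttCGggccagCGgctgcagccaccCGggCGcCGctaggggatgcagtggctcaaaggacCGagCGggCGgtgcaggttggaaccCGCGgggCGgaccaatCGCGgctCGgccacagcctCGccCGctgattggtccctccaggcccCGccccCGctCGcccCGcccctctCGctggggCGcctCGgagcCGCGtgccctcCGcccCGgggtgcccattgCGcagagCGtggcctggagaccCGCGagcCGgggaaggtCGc
GATA6: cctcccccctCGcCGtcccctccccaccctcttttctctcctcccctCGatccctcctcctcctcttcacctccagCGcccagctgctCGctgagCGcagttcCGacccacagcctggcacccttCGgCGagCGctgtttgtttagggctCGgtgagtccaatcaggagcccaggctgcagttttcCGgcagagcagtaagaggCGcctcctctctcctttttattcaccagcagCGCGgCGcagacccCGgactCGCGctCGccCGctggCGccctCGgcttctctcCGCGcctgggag

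Over all 35114 promoter windows of the table the median was 14 CG. It was 27 for the 17380 windows with an H3K4me3 peak in both lists, 26 for the 360 windows with peaks in all 4 lists, and 4 for the 16790 windows with neither mark in both of its lists. GATA1, at 7 CG and a ratio of observed over expected CG of 0.204, lay below the median of all promoters. GATA6, with a ratio of 0.824, and the downstream GATA3 window shown, with 0.865, lay well above the median ratio of 0.579. The other GATA2 window, chr3:128493152-128493451, held 29 CG, a ratio of 0.744, and no H3K4me3 peak in either list. In the 10 windows of these 4 genes, the letters TAATCC, the core bound by OTX factors, occurred on either strand in 2, both of GATA3. One of them is the upstream GATA3 window shown. Over all promoters 6.36% held TAATCC. Neither AGATAA nor TGATAA, forms of the GATA core that share the letters GATAA, occurred in any of the 10 windows on either strand, against 10.3% and 7.53% of all promoters. Among windows with an H3K4me3 peak in both lists the shares were lower, at 4.15% and 2.65%, and 4.14% for TAATCC. With 10 windows, 6 of them of GATA3, the absence does not show a lack of GATA cores beyond that.

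The marks fell into 4 patterns among the 6 genes. GATA2, GATA3 and GATA6 carried H3K4me3 at or near their own starts inside wide H3K27me3. GATA4 had wide H3K27me3 with 1 or 2 H3K4me3 peaks under 400 bp in its span. GATA5 had the widest H3K27me3 coverage of its window and no H3K4me3. GATA1 had neither mark in any breadth.

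**Figure D1:**
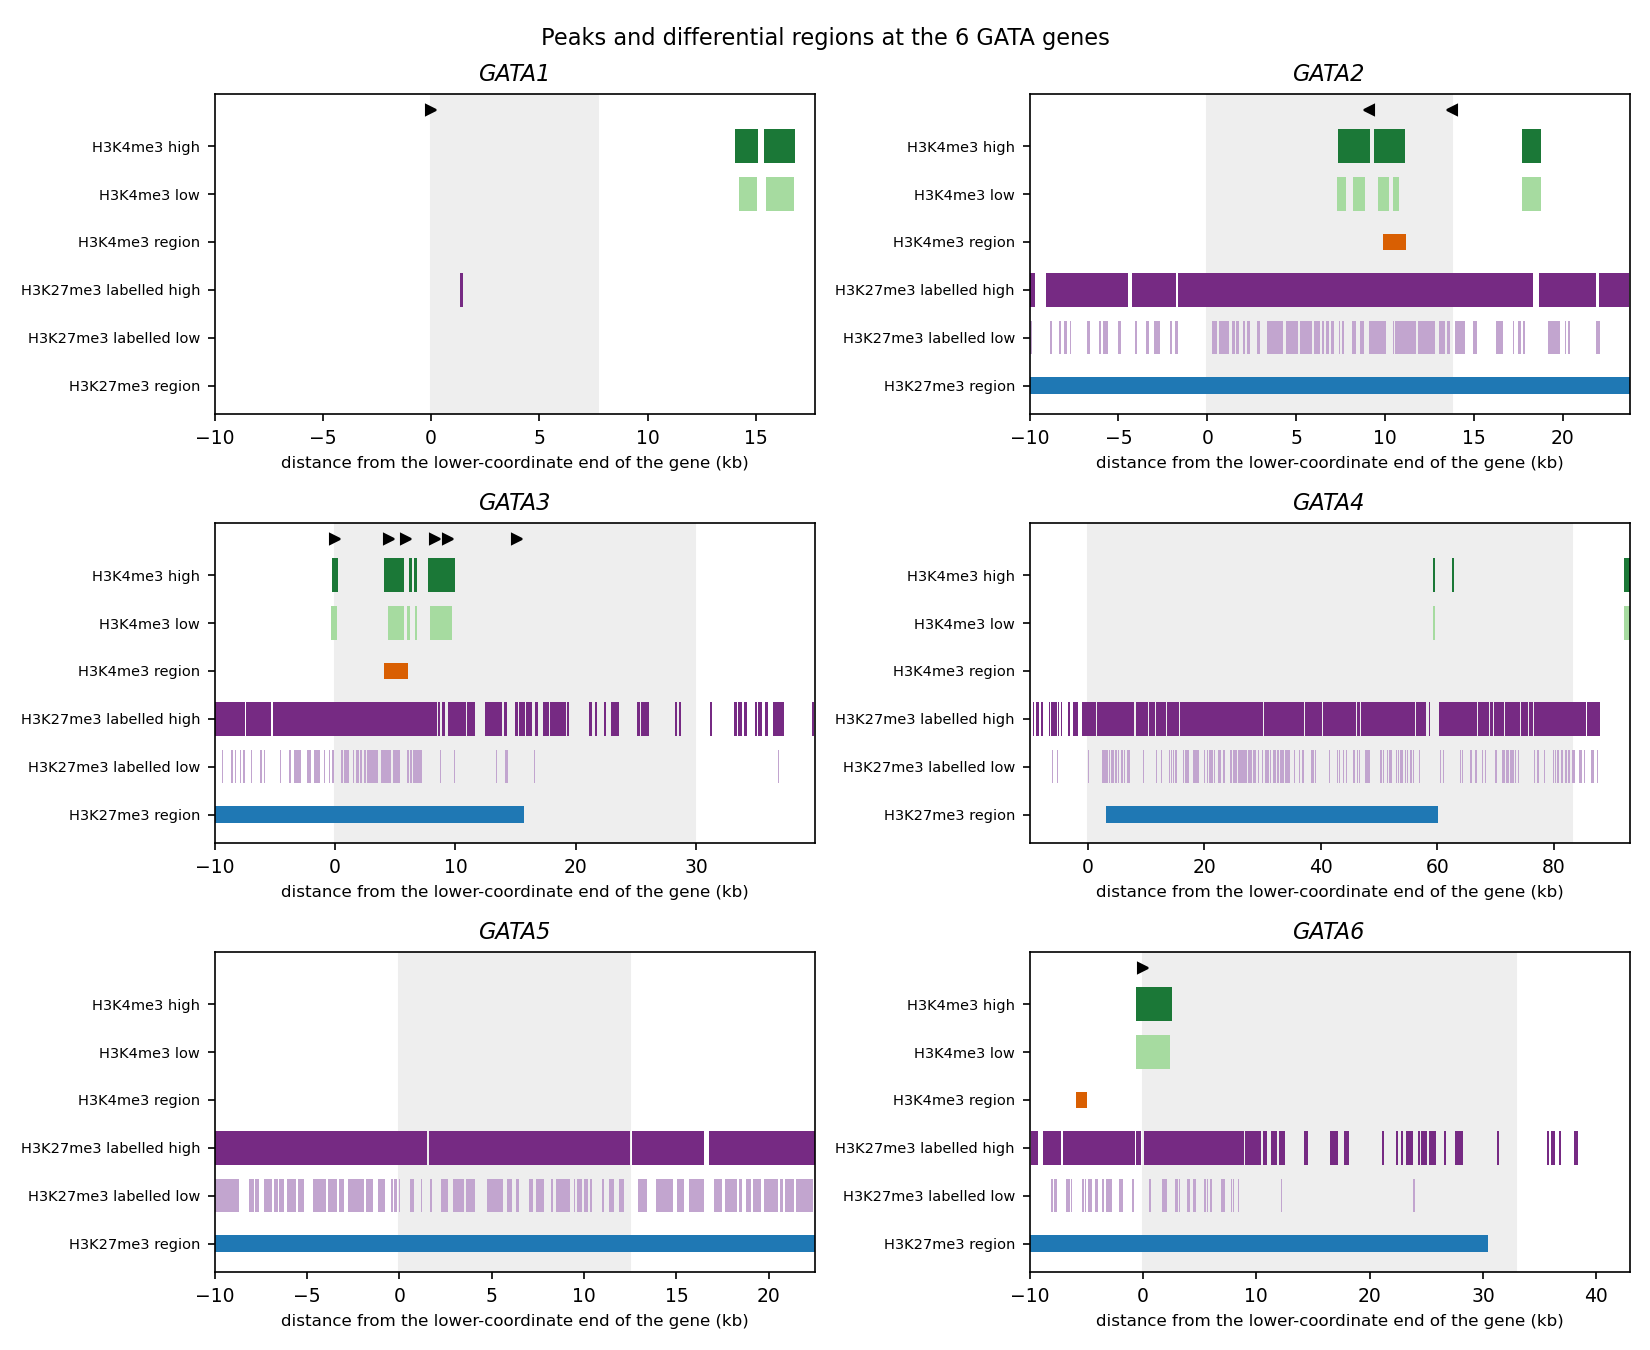
Peaks of the 4 lists and the authors' differential regions over the window of each GATA gene, with distance along the chromosome in kb on the x axis and 1 row per list. Grey marks the gene span, triangles the annotated starts with their direction, orange a region higher in OTX2high and blue a region higher in OTX2low. In the list labelled OTX2high, H3K27me3 peaks cover 50.7% or more of every window but that of GATA1, and the GATA1 window has H3K4me3 peaks only at its right edge, at HDAC6.

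H3K4me3 peaks lay in the windows of 5 of 6 GATA genes in both lists, against 79.5% of all protein-coding genes in OTX2high and 78.2% in OTX2low, so carrying such a peak did not set the family apart. With peaks at the ends of neighboring genes left out, 4 of 6 remained in each list, because the GATA1 window holds no H3K4me3 peak of its own. The H3K27me3 list labelled OTX2high had peaks at all 6 genes, against a background of 33.8%, and the list labelled OTX2low at 5 of 6, against 22.9%. At a −log10 q of at least 10 the latter list kept peaks at 2 of the 6. An H3K4me3 and an H3K27me3 peak in the lists labelled OTX2high were found together at 5 of 6 genes, GATA1 among them only through HDAC6, where 24.9% of all genes had both. Peaks of all 4 lists were found at GATA2, GATA3, GATA4 and GATA6, that is 4 of 6, where 14.7% of all genes had them.

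The share of the window under H3K27me3 peaks separated the members into an order that was the same in both lists. From the highest to the lowest it ran GATA5, GATA2, GATA4, GATA3, GATA6 and GATA1. GATA5, a heart and gut factor, was covered over 98.7% of its window in the list labelled OTX2high and over 61.0% in the list labelled OTX2low. Only 6 and 37 of 19974 genes had a larger share. GATA2, the factor of blood stem and progenitor cells, was covered over 95.7% and 41.1%, with 39 and 137 genes above it. GATA4, the heart and endoderm factor, was covered over 84.3% and 29.8%, with 227 and 280 genes above it. GATA3, known for T helper cells and the inner ear, reached 62.7% and 16.5%, and GATA6, a factor of primitive endoderm, 50.7% and 11.3%. Even at GATA6, the lowest of these 5, only 4.61% and 4.27% of genes had a larger share. GATA1, the erythroid and megakaryocyte factor, had 0.610% of its window covered in one list and none in the other. The median gene had 0% in both lists. Over the gene spans without the 10 kb sides, GATA2 came before GATA5, at 100% against 99.0% (labelled OTX2high) and 64.5% against 48.7% (labelled OTX2low). Each value comes from a single library, so whether neighbors in this order, such as GATA5 and GATA2, differ beyond replicate spread cannot be said.

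**Figure D2:**
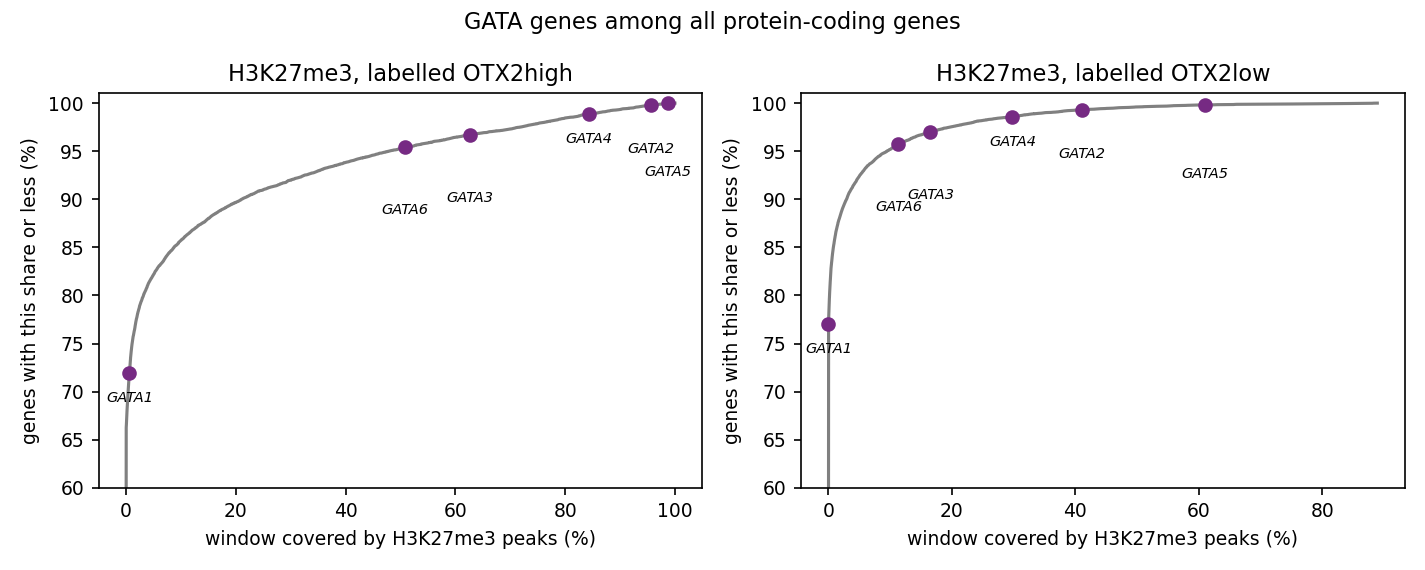
Share of each gene's window covered by H3K27me3 peaks (x axis, %) against the share of the 19974 protein-coding genes with that value or less (y axis, %), for the list labelled OTX2high (left) and OTX2low (right). Points are the 6 GATA genes; GATA5 sits highest at 98.7% and 61.0% of its window, and GATA1 lowest at 0.610% and 0%.

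At GATA5 the covered stretch reached far outside the gene, which lies at chr20:62463497-62475995. Joining H3K27me3 peaks less than 1000 bp apart gave a domain of 86.7 kb at chr20:62410751-62497429 in the list labelled OTX2high, with 71 longer domains among 46773. In the list labelled OTX2low the domain was 70.6 kb, and only 5 of 38100 domains were longer. With a joining gap of 3000 bp the domains were 385.0 and 81.8 kb. The longest single peak, 14018 bp with an authors' fold enrichment of 11.2, had 102 longer peaks in its list. No H3K4me3 peak of either list fell in the GATA5 window.

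GATA2, at chr3:128479422-128493201 on the minus strand, had its entire span inside 1 H3K27me3 peak of 19941 bp, chr3:128477803-128497743, in the list labelled OTX2high. That peak had an authors' fold enrichment of 12.5, and 23 peaks of the list were longer. The joined domain was 68.3 kb in that list and 14.9 kb in the other, or 116.5 and 78.7 kb with a gap of 3000 bp. In all, 3 H3K4me3 peaks stood within the window in OTX2high. One, chr3:128486775-128488562, reached the downstream GATA2 start and had a summit pileup of 24 fragments. A second, chr3:128488789-128490543 with 31 fragments, lay at the start of the antisense gene GATA2-AS1. The highest, chr3:128497114-128498233 with 88 fragments and a fold of 26.8, lay 3913 bp beyond the upstream GATA2 start and within the span of GATA2-AS1. In OTX2low the same stretch held 5 peaks, and the highest again was the outer one, at 54 fragments and a fold of 22.9. Fragment counts here and below are not scaled to depth, which was 33137731 tags in OTX2high and 20914582 in OTX2low. A lower count in OTX2low is thus not by itself less H3K4me3. Neither list had a peak on the upstream GATA2 start itself, whose window holds 29 CG. Reads carry no strand here that would separate GATA2 from GATA2-AS1.

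At GATA3, chr10:8045333-8075198 on the plus strand, the H3K27me3 covered the upstream side and the 5′ part of the gene more than its 3′ side. In the list labelled OTX2high, 97.5% of the 10 kb before the gene was covered, 62.6% of the span and 28.4% of the 10 kb after it. The longest peak, chr10:8040203-8053780, was 13578 bp with a fold of 11.6. Each H3K4me3 list had 5 peaks. In OTX2high, chr10:8049368-8051026 reached 60 fragments and chr10:8053092-8055321 reached 63, so the 2 were nearly equal at a ratio of 0.952. In OTX2low the matching peaks reached 15 and 53 fragments, a ratio of 0.283. By fold enrichment the pair stood at 18.4 and 19.3 in OTX2high and at 6.66 and 21.4 in OTX2low. The upstream one of the pair, which overlaps the antisense gene GATA3-AS1, was thus much the lower one in the OTX2low library and not in OTX2high. A ratio within a library is not scaled by its depth. The downstream one also spans the annotated starts of GATA3-AS1, and the mark of the 2 genes cannot be told apart there. The most upstream GATA3 start had a small peak in both, with 19 fragments (fold 6.02) in OTX2high and 18 (fold 7.91) in OTX2low.

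GATA6, at chr18:22169589-22202528 on the plus strand, showed the same lean to its upstream side. The list labelled OTX2high covered 89.7% of the 10 kb before the gene, 51.0% of the span and 10.9% of the 10 kb after it. The gene had a single H3K4me3 peak across its start, of 3157 bp in OTX2high (81 fragments, fold 24.7) and of 2935 bp in OTX2low (37 fragments, fold 15.8). It was the longest H3K4me3 peak of the family in both lists.

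**Figure D3:**
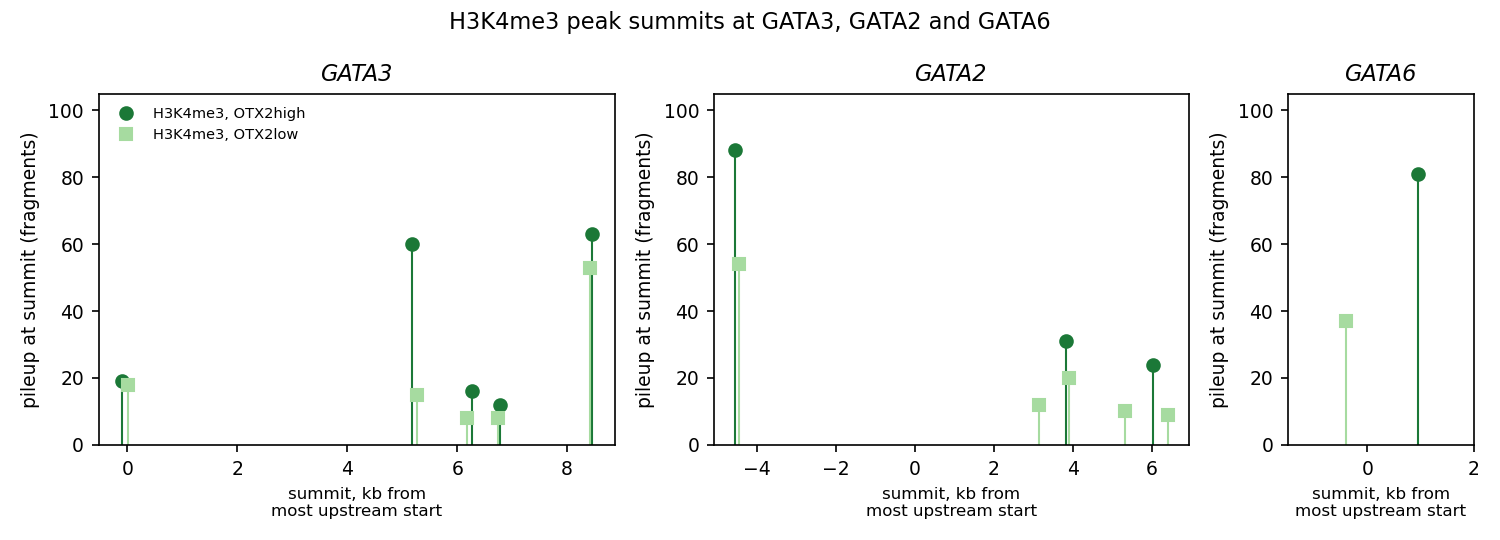
Pileup at the summit of each H3K4me3 peak (y axis, fragments, not scaled to depth) against the distance of the summit from the most upstream annotated start in kb (x axis, positive into the gene) at GATA3, GATA2 and GATA6. The GATA3 peaks near 5 kb stand at 60 fragments in OTX2high and 15 in OTX2low, beside 63 and 53 for the peaks near 8.5 kb.

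GATA4, at chr8:11676935-11760002, combined 93.1% H3K27me3 coverage of its span, in the list labelled OTX2high, with little H3K4me3. Inside the span OTX2high had 2 short H3K4me3 peaks, of 388 bp (29 fragments) and 258 bp (19 fragments), and OTX2low had 1 (20 fragments). The strong H3K4me3 peak of its window was chr8:11768939-11771137, with 158 fragments in OTX2high. It lay over the lower-coordinate edge of the neighboring NEIL2 (chr8:11769710-11787345), a DNA repair gene. The noncoding gene LOC124901888 (chr8:11768802-11771450) spans the whole peak. In OTX2low the matching peak had 97 fragments. Fragments are not scaled to depth, and the folds were 47.9 (OTX2high) and 40.8 (OTX2low). The joined H3K27me3 domain was 65.4 kb in the list labelled OTX2high and 25.3 kb in the other, or 103.3 and 93.6 kb with a gap of 3000 bp.

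GATA1, at chrX:48786590-48794311 on the plus strand, stood apart from the other members. Its window held 1 H3K27me3 peak, chrX:48787903-48788071, whose 169 bp equal the fragment length of that list, with a fold of 3.12 and a −log10 q of 2.45. The 2 H3K4me3 peaks of each list began 14017 bp or more from the GATA1 start and lay at the start of HDAC6, a deacetylase gene. HDAC6 peaks reached 78 fragments in OTX2high and 49 in OTX2low, not scaled to depth, with folds of 23.8 and 20.8.

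**Figure D4:**
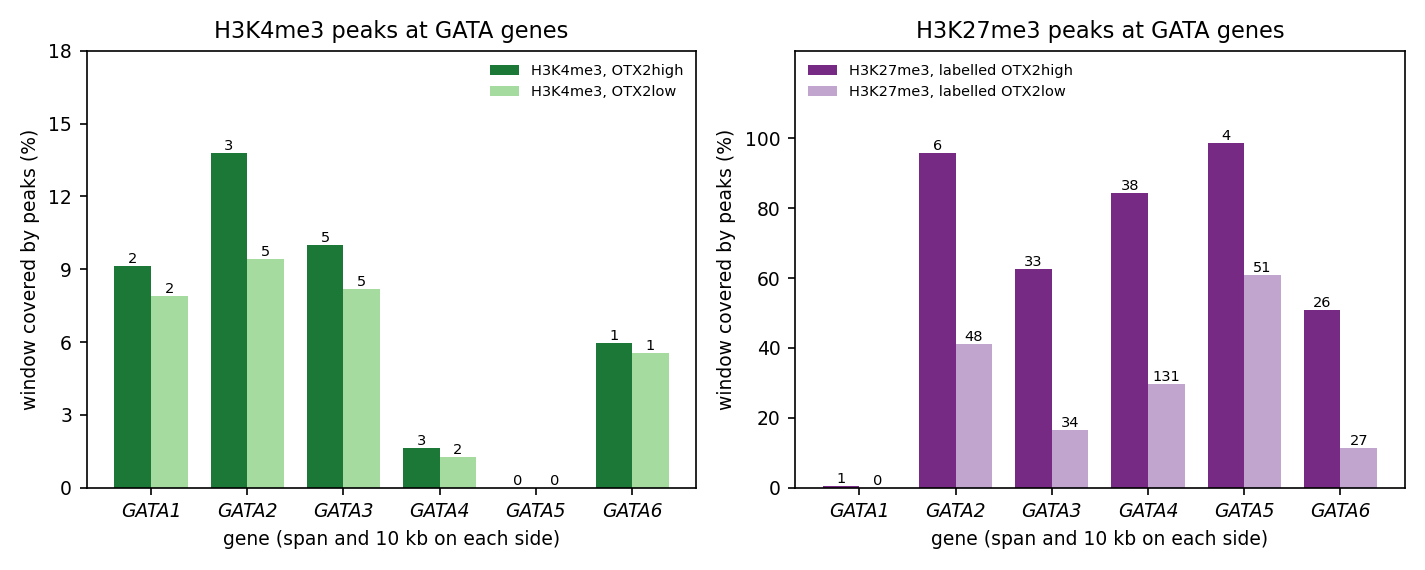
Share of the window of each GATA gene covered by peaks (y axis, %), for the 2 H3K4me3 lists (left) and the 2 H3K27me3 lists (right), 1 library per bar. H3K4me3 covers at most 13.8% of any window (GATA2 in OTX2high), while H3K27me3 covers 50.7% or more of all windows but that of GATA1 in the list labelled OTX2high.

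The H3K4me3 of GATA2, GATA3 and GATA6 lay mostly within the H3K27me3 peaks of one list and less than that within those of the other. Of the H3K4me3 bases of the OTX2high list, 92.5% at GATA2, 90.5% at GATA3 and 89.9% at GATA6 were also under H3K27me3 peaks of the list labelled OTX2high. With the H3K27me3 list labelled OTX2low these shares were 45.9%, 39.3% and 23.8%. At GATA4 they were 13.3% and 0%, and at GATA1 0% in both. Counted by peak, 10 of the 14 H3K4me3 peaks of OTX2high touched H3K27me3 in the list labelled OTX2high, and 6 were wholly inside it. Over all 33201 H3K4me3 peaks of that library, 13.0% touched it. In OTX2low, 11 of 15 peaks touched the same list, where 15.7% of all H3K4me3 peaks did. Overlap of this kind is in a population of cells and does not show that both marks sat on the same nucleosomes. By the list headers, H3K4me3 of OTX2high and the H3K27me3 list labelled OTX2high come from different conditions. The overlap between them may thus be across conditions. H3K4me3 of OTX2low and that H3K27me3 list share a condition by the headers. For them the shares of bases were 89.0% at GATA2, 88.4% at GATA3 and 89.5% at GATA6. The other pair that shares a condition by the headers is the one given above at 45.9%, 39.3% and 23.8%. Within GATA3 the overlap differed between the pair of peaks. The one at chr10:8049368-8051026 was 100% and 71.7% under the lists labelled OTX2high and OTX2low, and the one at chr10:8053092-8055321 was 78.8% and 6.46%.

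The change with OTX2 silencing was taken from the authors' differential regions, which compare 1 library with 1. H3K4me3 regions higher in OTX2high were found at 3 of 6 GATA genes (GATA2, GATA3 and GATA6), against 54% of all genes, a share near the background. None of the 6 had a region higher in OTX2low, against 15.1%, and 2 had one when windows were extended by 50 kb instead. Values are given as normalized reads, and the log2 ratio is OTX2high over OTX2low, with an interval of 95% that covers counting error only.

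The GATA3 region in the authors' deposited table, chr10:8049401-8051400, stood at 213 (OTX2high) against 104 (OTX2low) normalized reads, or 1.03 in log2 (0.67 to 1.41). It lies over the upstream one of the pair of peaks described above, and no region was called over the downstream one. At GATA2 the authors' deposited table gave chr3:128489301-128490600 with 110.1 (OTX2high) against 55.2 (OTX2low) normalized reads, or 1.00 in log2 (0.50 to 1.52), at the start of GATA2-AS1 and 771 bp from the nearer GATA2 start. Both ratios stood above the median of 0.52 over the 12168 genes with an H3K4me3 region, GATA3 by 0.51 and GATA2 by 0.48. Only regions that passed the authors' G-test on reads are listed, so a region with few reads needs a larger ratio to be listed. The median was not matched for read depth, so standing above it does not by itself set GATA2 and GATA3 apart. The lower bound for GATA2 lay just under that median and the lower bound for GATA3 above it. The third region, chr18:22163701-22164700 before GATA6, held 11.2 (OTX2high) against 0 (OTX2low) normalized reads in the authors' deposited table. Set against a floor of 3 counts in the OTX2low library it was at least 2.97-fold higher in OTX2high, and the counting interval of 95% for the log2 ratio, from 14 reads against 0, begins lower, at 1.08. It lay 4889 bp before the GATA6 start and in no peak of any H3K4me3 list, and no region was called over the GATA6 promoter peak.

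H3K27me3 regions higher in OTX2low, by the condition names of the authors' table, were found at 5 of 6 GATA genes, against 9.07% of all genes. No GATA gene had one higher in OTX2high, against 4.29%, and GATA1 had none in either direction. If instead the H3K27me3 sample labels are the right ones, every such direction turns around. The regions were long, from 36 kb at GATA3 to 70 kb at GATA5, where the median region of the table was 14000 bp.

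The size of the difference was small and much alike at the 5 genes. GATA6 had the largest log2 ratio, with 1959.7 (OTX2high) against 2672 (OTX2low) normalized reads over chr18:22155001-22200000 in the authors' deposited table, or −0.45 (−0.53 to −0.36). GATA3 followed with 1956 and 2612 reads over chr10:8025001-8061000 in the authors' deposited table, or −0.42 (−0.50 to −0.33). In the authors' deposited table GATA2 had 2753 and 3469 reads over chr3:128467001-128507000, or −0.33 (−0.41 to −0.26). The 3 intervals overlap one another.

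GATA5 gave 5177 and 6457 reads over chr20:62436001-62506000 in the authors' deposited table, or −0.32 (−0.37 to −0.27). GATA4 gave 3955 and 4899.6 over chr8:11680001-11737000 in the authors' deposited table, or −0.31 (−0.37 to −0.25). Over the 2605 genes with an H3K27me3 region the median was −0.33, opposite in sign to the median over all regions given below, and the intervals of GATA2, GATA4 and GATA5 include it, while that of GATA3 ends at it and that of GATA6 lies below it. Relative to that median the 5 genes stood at 0.02 (GATA4), 0.01 (GATA5), 0.00 (GATA2), −0.09 (GATA3) and −0.12 (GATA6). Of the 1647 regions with at least 4-fold enrichment over IgG in the authors' deposited table, 1629 were higher in OTX2low, with a median log2 ratio of −0.35. Over all 5401 H3K27me3 regions of the authors' deposited table the balance was the other way, with 3103 higher in OTX2high, 2298 higher in OTX2low and a median of 0.48 in log2. The direction at the GATA genes was thus that of most regions at this enrichment and not that of most regions overall.

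Enrichment over IgG differed more between the genes than between the libraries. The authors' deposited table has it at 10.8 (OTX2high) and 12.1 (OTX2low) at GATA5, and only 8 of the 5401 regions had a higher value in OTX2low. At GATA6 the authors' deposited table gave 3.90 and 6.06, the lowest of the 5. GATA2 (7.58 and 9.82), GATA3 (6.36 and 8.72) and GATA4 (6.60 and 8.04) lay between them in the authors' deposited table. Per length the reads ran from 43.5 per kb at GATA6 to 74.0 per kb at GATA5 in OTX2high, and from 59.4 to 92.2 in OTX2low.

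**Figure D5:**
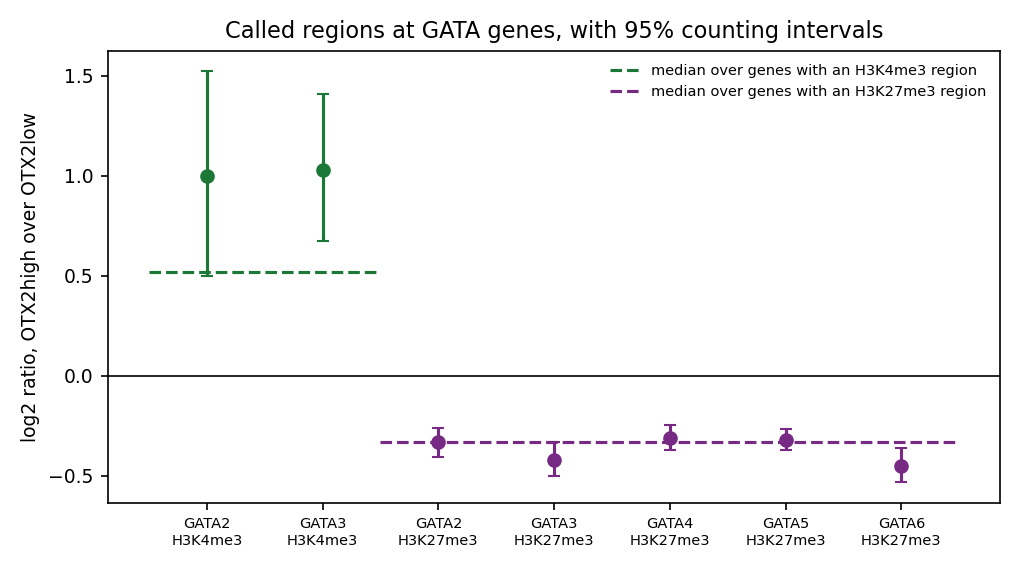
Log2 ratio of OTX2high over OTX2low (y axis) of each GATA gene region with reads in both conditions, by gene and mark (x axis). Bars show the 95% counting interval, and dashed lines the median over genes with a region of the same mark. The H3K27me3 points lie between −0.45 and −0.31 around the median of −0.33, and the H3K4me3 points of GATA2 and GATA3 at 1.00 and 1.03, above the median of 0.52. The medians are not matched for read depth.

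Other genes of the GATA networks were followed in 5 fixed lists by the same rule. Of 22 GATA cofactors and complex partners, 19 had an H3K4me3 peak in OTX2high, 11 an H3K27me3 peak by the list labelled OTX2high and 8 a peak in all 4 lists. The shares over all genes were 79.5%, 33.8% and 14.7%. H3K4me3 regions were higher in OTX2high at 10 of the 22 (54% of all genes) and in OTX2low at 4 (15.1%). The H3K4me3 log2 ratio of largest size in the authors' deposited table was that of CBFA2T3, a corepressor of the TAL1 complex, at −1.77 (−2.10 to −1.45). There the authors' deposited table lists 93.3 (OTX2high) against 318 (OTX2low) normalized reads. SSBP3, which stabilizes LDB1, had 1.36 (0.92 to 1.82), and GFI1, a blood zinc finger repressor, had 0.72 in the authors' deposited table. For H3K27me3, 2 cofactors had regions higher in OTX2high (4.29% of all genes) and 8 in OTX2low (9.07%). The authors' deposited table has −0.70 in log2 for LMO1, a LIM-only adaptor, at an enrichment of 1.30 (OTX2high) and 2.31 (OTX2low) over IgG. ZFPM2, the FOG2 cofactor of GATA4, had 0.59, at an enrichment of 0.66 and 0.48 over IgG in the authors' deposited table, that is, below IgG in both libraries. The median H3K4me3 ratio of this list was 0.40, against 0.52 over all genes with a region.

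The 9 other genes with GATA-type zinc fingers all had H3K4me3 peaks in both lists (79.5% and 78.2% of all genes), but H3K27me3 peaks were listed at 1 of them under the label OTX2high (33.8% of all genes) and at none under the label OTX2low (22.9%). H3K4me3 was higher in OTX2high at 7 (54% of all genes) and in OTX2low at 1 (15.1%). For GATAD2B, MTA1 and MTA3, subunits of the NuRD complex, the authors' deposited table has 0.64, 0.58 and 0.50 in log2. The only H3K27me3 region of this list was that of TRPS1, a GATA-type repressor of cartilage development, at 0.67 and below IgG in both libraries (0.69 and 0.48) in the authors' deposited table.

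Among 23 blood targets and markers, 14 had an H3K4me3 peak in OTX2high, 7 an H3K27me3 peak by the list labelled OTX2high and 5 peaks in all 4 lists. Of all genes, 79.5%, 33.8% and 14.7% had these. The 23 included 9 with an H3K4me3 region higher in OTX2high (54% of all genes) and 3 in OTX2low (15.1%), and 1 and 3 with such H3K27me3 regions (4.29% and 9.07%). EPOR, the erythropoietin receptor, had 0.57 in log2 for H3K4me3 in the authors' deposited table. The region counted for ALAS2, the erythroid heme enzyme, had 0.54 in the authors' deposited table and lay 8555 bp outside that gene. HBA1, an alpha globin gene, had H3K27me3 at 6.90-fold (OTX2high) and 7.25-fold (OTX2low) over IgG and a log2 ratio of −0.29, and CD3E, a T cell receptor subunit, had −0.38, in the authors' deposited table. ITGA2B, the platelet integrin, had the one H3K27me3 region of this list that was higher in OTX2high, at 0.69 with an enrichment of 1.01 and 0.64 over IgG in the authors' deposited table.

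Of 27 endoderm and heart factors, 18 had H3K4me3 peaks in each list, 17 an H3K27me3 peak by the list labelled OTX2high and 7 peaks in all 4. Among all genes these were 79.5% and 78.2%, 33.8% and 14.7%. H3K4me3 was higher in OTX2high at 10 of the 27, below the 54% of all genes, and in OTX2low at 2, below the 15.1%. For H3K27me3 it was 1 higher in OTX2high (4.29% of all genes) and 9 in OTX2low (9.07%). EOMES, a T-box factor of early endoderm, had both, with 0.91 in log2 for H3K4me3 and −0.47 for H3K27me3 in the authors' deposited table. HNF4A, the liver factor, had an H3K27me3 ratio of −0.42, and FOXA2, the endoderm pioneer factor, had −0.51 in a region 4511 bp outside its span, in the authors' deposited table. Enrichment over IgG in these H3K27me3 regions was 1.75 (OTX2high) and 2.49 (OTX2low) at EOMES in the authors' deposited table. It was 1.98 and 2.86 at FOXA2 and 3.08 and 3.92 at HNF4A in the authors' deposited table. BMP4, a secreted signal, stood at 0.69 in log2 for H3K4me3, again by the authors' deposited table.

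Of 19 neural partners of GATA2 and GATA3, 17 had an H3K4me3 peak in OTX2high, 14 an H3K27me3 peak by the list labelled OTX2high and 8 peaks in all 4. The same shares over all genes were 79.5%, 33.8% and 14.7%. H3K27me3 was higher in OTX2low at 10 of the 19 (9.07% of all genes) and in OTX2high at none (4.29%). H3K4me3 was higher in OTX2high at 5, below the 54% of all genes, and in OTX2low at 2 (15.1%). PHOX2A, a factor of noradrenergic neurons, had an H3K4me3 log2 ratio of 0.97, and NKX6-1 had 0.48, in the authors' deposited table. TH and DBH, enzymes of catecholamine synthesis, stood at −0.37 and −0.38 in log2 for H3K27me3 in the authors' deposited table. The median share of the window under H3K27me3 in the list labelled OTX2high was 29.6% for this list, 4.76% for the endoderm and heart factors and 0% for the blood genes, beside 73.5% for the GATA genes.

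The genes most like each member were those nearest in the share of the window covered in the 4 lists, by Euclidean distance in percentage points, among genes with windows within 1.5 times the member's length. Nearest to GATA5 was HOXB1, at a distance of 1.61, with no H3K4me3 coverage and 97.8% and 59.6% H3K27me3 coverage. FOXD2 (2.43) and HOXD10 (3.34) were nearest to GATA2. For GATA4 they were CFAP46 (1.69), TNXB (1.88) and LMX1B (2.27). GATA3 had no gene closer than DUSP8 (4.21) and GATA6 none closer than DRC5 (3.82) and RET (3.95). GATA1 was nearest to SH3BP5L (0.211), a gene with 9.07% H3K4me3 coverage in OTX2high and almost no H3K27me3. The H3K4me3 coverage of the GATA1 window, 9.12%, comes wholly from the HDAC6 peaks, so this likeness is of the window and not of the gene.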

How the data were processed

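The submitters' processing notes name Bowtie2 2.3.3.1, MACS2 2.1.1.20160309 and the build GRCh38. Per the file headers, narrow peaks were called at a q-value of 0.05 in each library against 1 IgG library, without pooling. The authors' peak lists give a pileup signal at the summit, −log10 p and q values and fold enrichment (a ratio over background). These are each peak's own values. Per the file headers, the authors' differential regions came from diffReps 1.55.6, a G-test at a p-value of 0.0001 on windows of 1000 bp (H3K4me3) and 10000 bp (H3K27me3). The deposited columns hold read signal scaled per library, a ratio over IgG, a log2 ratio and a Benjamini-Hochberg adjusted p-value. That p compares 2 libraries, not the conditions, and is not used as evidence here. Its header names the genome hg19 for annotation, while coordinates are taken as GRCh38.

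From these, overlaps, covered lengths and domains were computed with Python 3.11.15, pandas 2.3.3 and scipy 1.17.1. A gene with several regions is given by the one holding the most reads. Reads were recovered from the value of 1 read: within 0.05, 99.96% (OTX2high) and 99.98% (OTX2low) of H3K4me3 values and 99.7% and 99.8% of H3K27me3 values came out whole. A G-test on the recovered H3K4me3 reads called 21259 of the authors' 21714 regions at the same threshold. From these reads came exact conditional (Clopper-Pearson) 95% intervals. They cover counting error only, since PCR reads are not independent molecules and no condition has a replicate. Overlap and interval code was tested on simulated data.

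Promoters came from the RefSeq GRCh38.p14 table by symbol, which matched 4 of the 6 genes. The 6 genes and the 5 lists were chosen with earlier results of these data known. Genes named from the lists are, for each mark, up to 3 with the largest absolute log2 ratio and at least 100 normalized reads in 1 condition. Some genes that this rule picks are not reported here. The members are all named. Alternatives were other window sizes, stricter q and p values, overlap rules, centring on the median over genes, and condition names.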

Additional observations from a re-analysis of the deposited data

How the results depend on the processing

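Among the recomputed counts of genes, 2 moved by more than 1.5 times. At a −log10 q of at least 10, the H3K27me3 list labelled OTX2low kept peaks at 2 GATA genes in place of 5. At a −log10 q of at least 5, the share of all 6 windows under peaks was 5.58% (5.68% with all peaks) for H3K4me3 in OTX2high and 4.07% (4.57%) in OTX2low. It was 66.7% (69.9%) and 13.3% (26.2%) for H3K27me3 in the lists labelled OTX2high and OTX2low. With windows extended by 50 kb, 2 GATA genes had an H3K4me3 region higher in OTX2low. With conditions named by the sample labels, the H3K27me3 log2 ratios were 0.33 (GATA2), 0.42 (GATA3), 0.31 (GATA4), 0.32 (GATA5) and 0.45 (GATA6). Relative to the median over genes, GATA4 and GATA5 turned to 0.02 and 0.01. With a joining gap of 3000 bp, chosen after seeing the data, 9 of the 11 joined domains moved, among them GATA2 in the list labelled OTX2low from 14.9 to 78.7 kb, GATA4 in that list from 25.3 to 93.6 kb, and GATA5 in the list labelled OTX2high from 86.7 to 385.0 kb. No paired analysis was possible because each mark has 1 library per condition. The depth sets the width of the counting intervals, and the spread between cultures is not known.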
